A study of Homo sapiens with 17 samples.

Results

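The 9 genes described here encode hepcidin and the proteins through which a cell takes up, stores and releases iron: HAMP, HFE, TFR2, TF, TFRC, SLC11A2, SLC40A1, FTL and FTH1. They were chosen by symbol, and all 9 were found among the 20218 genes of the deposited expression table. The table covers 17 RNA-seq libraries from 1 human embryonic stem cell line, H9, carrying a GFP reporter of SHOX2 and an mCherry reporter whose gene the labels do not name. GFP+mCherry+ cells had 2 libraries at day 40 and 3 at day 25 of differentiation. The GFP-mCherry+ population and the GFP-mCherry- population each gave 3 libraries per day. All groups shared a first step of CHIR99021, BMP4 and Activin A. The labels then describe a cardiomyocyte branch with XAV939 and a sinoatrial branch with cucurbitacin, retinoic acid, SU5402, XAV939, Tyrphostin AG 490 and chidamide. They call every library sinoatrial node-like and do not say which branch a sorted population came from. The study set cells with the SHOX2 reporter against mCherry+ cells without it.

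Iron circulates bound to transferrin and enters most cells when transferrin binds its receptor and is taken into endosomes, from which a divalent metal transporter carries the iron into the cytosol. Cells keep iron in ferritin, a shell of heavy and light chains, and release it through ferroportin, which hepcidin binds and takes from the membrane. The liver makes most of the body's hepcidin. In the heart of mice, cardiomyocytes also make hepcidin and ferroportin, and loss of either there disturbs the iron content of the heart muscle.

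The labels were checked first. SHOX2, the gene behind the GFP reporter, lay between 49.0 and 139 FPKM in the 5 GFP+mCherry+ libraries, and no library of the other populations passed 2.41 FPKM. Summed over 7 cardiomyocyte markers (TNNT2, ACTN2, MYL7, MYH6, RYR2, NKX2-5 and TTN), libraries held 6052 to 9525 FPKM in GFP+mCherry+ cells at day 40 and 5212 to 13235 at day 25. GFP-mCherry+ libraries held 14283 to 24601 FPKM at day 40 and 18893 to 23173 at day 25. GFP-mCherry- libraries held 539 to 2355 FPKM at day 40 and 575 to 767 at day 25. Libraries 13 (GFP+mCherry+, day 40) and 14 (GFP-mCherry+, day 40) stood apart, with 16493 and 16598 genes above 0 against at least 17108 in every other library. Read depth is not in the table, so no counting interval is given. The labels do not tie a group's libraries to separate cultures, and the p-values measure a library-to-library spread that may be technical. In sorted populations, fewer cells of a type and less RNA per cell cannot be told apart.

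Several of the 9 messages carry an iron-responsive element, a hairpin that iron regulatory proteins bind when iron is scarce. In the 5′ UTR it blocks translation, and in the 3′ UTR of TFRC it protects the message from decay. Sites found by a pattern search in genes known to carry the element are shown, since RNA levels do not report control of translation. GENCODE v29 transcripts (GRCh38) were searched on the sense strand for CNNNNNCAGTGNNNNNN, in which the 5 bases on each side of the 6-base loop had to pair at 4 or more positions. Elements that depart from this pattern are missed, and TFRC sites are numbered among those found. Capitals mark the loop, and each site is written 5′ to 3′.
FTH1 5′ UTR: cttcaaCAGTGCttgga
FTL 5′ UTR: cttcaaCAGTGTttgga
SLC40A1 5′ UTR: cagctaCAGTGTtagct
TFRC 3′ UTR, the first: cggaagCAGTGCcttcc
TFRC 3′ UTR, the second: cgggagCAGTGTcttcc
TFRC 3′ UTR, the third: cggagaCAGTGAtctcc
TFRC 3′ UTR, the fourth: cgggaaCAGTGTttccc
SLC11A2 3′ UTR: cagagcCAGTGTgtttc

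The FTH1 site lies at chr11:61967580-61967596 on the minus strand, the FTL site at chr19:48965341-48965357 on the plus strand and the SLC40A1 site at chr2:189580667-189580683 on the minus strand. The 4 TFRC sites lie on the minus strand between chr3:196050985-196051001 and chr3:196050469-196050485, and the SLC11A2 site at chr12:50988275-50988291 on the minus strand. All paired at 5 of 5 positions except the SLC11A2 site, which paired at 4. The sites of FTH1 and FTL have the same stem and differ in the last base of the loop. Of 19702 protein-coding genes, 291 (1.48%) held a match with 5 pairs and 2202 (11.2%) a match with at least 4. HFE also matched in the 3′ UTR of 1 transcript with 4 pairs, and TF in that of 1 transcript with 5. A match in these letters is not evidence of a working element, and protein was not measured.

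The 180 bases before the HAMP start site are shown because HAMP is the gene of the hormone itself. In liver cells this promoter carries response elements for BMP signalling through SMAD proteins and for interleukin 6 signalling through STAT3. The sequence is from RefSeq (GRCh38.p14, chr19:35282348-35282527, plus strand), and 7 of the 9 genes matched that promoter table.
HAMP promoter: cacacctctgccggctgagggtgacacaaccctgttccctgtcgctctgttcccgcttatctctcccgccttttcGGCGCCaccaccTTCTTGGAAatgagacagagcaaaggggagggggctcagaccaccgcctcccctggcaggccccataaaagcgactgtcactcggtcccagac
The capitals mark GGCGCC, the core of a BMP response element, 105 to 100 bases before the start, and a match to TTCNNNGAA, the STAT palindrome, 93 to 85 bases before it. Searched on both strands, which these palindromes read alike, GGCGCC occurred in windows of the same length of 15.7% of 27305 genes and TTCNNNGAA in those of 5.58%. The motifs do not overlap each other. Among the 7 matched members TF also held GGCGCC, and HAMP alone held TTCNNNGAA.

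The GFP+mCherry+ cells held less hepcidin message and more message of HFE, ferroportin and ferritin light chain than the GFP-mCherry+ cells. The ferritin heavy chain stood close to the same level in every group. Differences are on the log2(FPKM + 1) scale with their standard error, from limma over all 17 libraries, and a gene was called at a Benjamini-Hochberg adjusted p under 0.05 over the 14845 genes tested. This scale understates differences of genes with low values. Of the 9 genes 8 were tested, and TFR2 was too low. Between GFP+mCherry+ and GFP-mCherry+ cells at day 40, 4 of the 8 were called, against 25.6% of all genes. HFE, FTL and SLC40A1 were higher and HAMP lower. At day 25, 5 were called, against 20.5% of all genes, with TF as the addition. The median difference of the 8 genes was 0.99 at day 40 and 0.78 at day 25, and that of all genes 0.08 and 0.06. Between GFP-mCherry+ and GFP-mCherry- cells, 3 were called at day 40, against 32.1% of all genes, and 4 at day 25, against 28.6%. HAMP was higher and HFE and FTL lower at both days, and the fourth call at day 25 was TFRC. The 8 genes had a median difference of -0.59 at day 40 and -0.25 at day 25, against -0.09 and -0.11 over all genes. In GFP+mCherry+ against GFP-mCherry- cells, 0 of the 8 were called at day 40, against 12.0% of all genes, and 2 at day 25 (SLC40A1 and TFRC), against 11.1%. These comparisons share libraries and are not independent of each other.

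**Figure D1:**
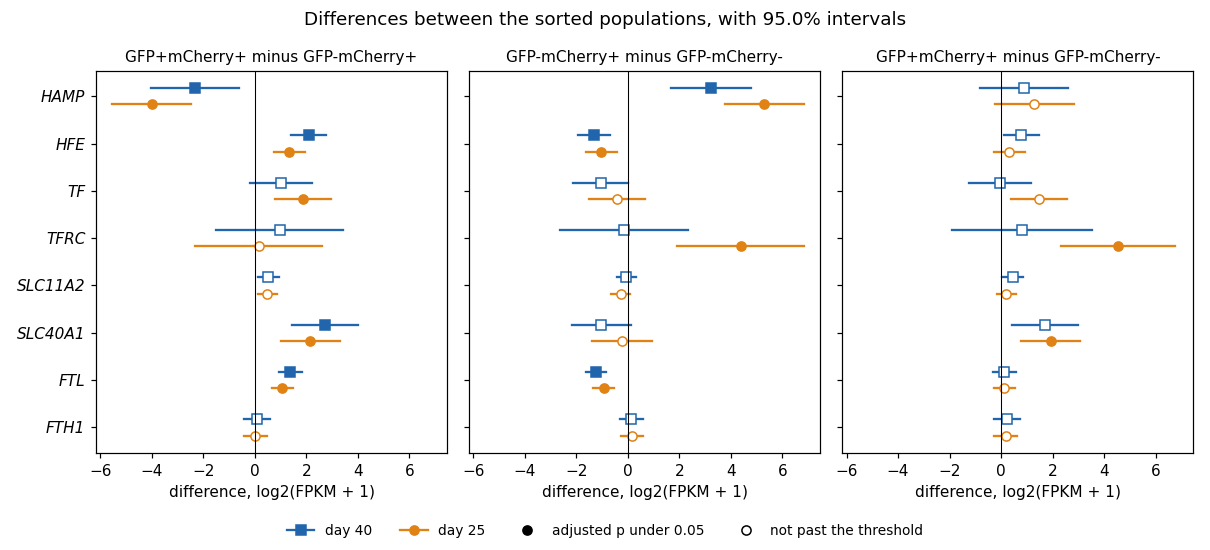
Difference of 8 iron handling genes between the sorted populations on the log2(FPKM + 1) scale, with limma's 95% interval, for day 40 (blue squares) and day 25 (orange circles). Filled points have an adjusted p under 0.05. HAMP lies far left in GFP+mCherry+ minus GFP-mCherry+ and far right in GFP-mCherry+ minus GFP-mCherry-. HFE and FTL lie on the opposite sides. FTH1 was not called, with differences of 0.01 to 0.22. The TFRC points of day 25 against GFP-mCherry- rest on 2 libraries listed at 0.

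HAMP (ENSG00000105697, hg19 chr19:35771619-35776046) encodes hepcidin. It stood at 10.0 and 3.41 FPKM in the GFP+mCherry+ libraries of day 40, against 104, 18.8 and 19.7 FPKM in the GFP-mCherry+ libraries and 10.1, 1.21 and 1.17 FPKM in the GFP-mCherry- libraries. At day 25 it stood at 1.96, 3.19 and 3.95 FPKM in GFP+mCherry+ cells, against 22.9, 71.0 and 148 FPKM in GFP-mCherry+ cells and 0.299, 0.618 and 1.02 FPKM in GFP-mCherry- cells. Every GFP-mCherry+ library lay above every library of the other populations, at both days. The GFP-mCherry+ libraries themselves spanned a wide range, and library 11 at day 40 held far more than the others of its group. By mean level the order was GFP-mCherry+ day 25, GFP-mCherry+ day 40, GFP+mCherry+ day 40, GFP-mCherry- day 40, GFP+mCherry+ day 25 and GFP-mCherry- day 25. Neighbours in that order overlapped, except GFP-mCherry+ and GFP+mCherry+ at day 40 and the last 2 groups.

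In GFP+mCherry+ cells HAMP was lower than in GFP-mCherry+ cells by a log2 difference of -2.33 ± 0.81 at day 40 (limma, adjusted p 0.0454). The day 25 means were 3.04 ± 1.01 FPKM in GFP+mCherry+ cells and 80.7 ± 63.2 FPKM in GFP-mCherry+ cells (SD, n = 3 each), a log2 difference of -4.01 ± 0.73 (limma, adjusted p 0.00186). In GFP-mCherry+ cells HAMP was higher than in GFP-mCherry- cells by 3.22 ± 0.73 at day 40 (limma, adjusted p 0.00299) and by 5.29 ± 0.73 at day 25 (limma, adjusted p 5.99e-05). GFP+mCherry+ minus GFP-mCherry- was 0.89 ± 0.81 at day 40 and 1.29 ± 0.73 at day 25 (limma, adjusted p 0.5 and 0.285), although the libraries of day 25 did not overlap. With only these groups in the fit the adjusted p of day 25 was 0.0152. The call between the mCherry+ populations at day 40 rests on few libraries: without library 13 the difference was -1.67 (limma, adjusted p 0.367), without library 11 it was -1.54 (0.176), and without libraries 13 and 14 it was -2.08 (0.238). Leaving out any of libraries 1, 3, 4, 5, 6, 7 and 9 of day 25 also put its adjusted p between 0.0502 and 0.0561.

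Beside these HAMP levels stand the cardiomyocyte markers. All 7 of these were higher in GFP-mCherry+ than in GFP-mCherry- cells at both days, and 5 of 7 were lower in GFP+mCherry+ than in GFP-mCherry+ cells at both days. Against GFP-mCherry- cells, GFP+mCherry+ cells had 5 of 7 markers higher at day 40 and 6 of 7 at day 25, with median differences of 2.79 and 3.25, while HAMP was not called in the fit over all libraries. Library 12, the GFP-mCherry- library with 10.1 FPKM of HAMP, also held the highest marker sum of its population, 2355 FPKM, where the lowest library of its group held 539. GFP+mCherry+ libraries had higher marker sums (5212 to 13235 FPKM), with MYL7 and TNNT2 the highest of the 7 by mean level, and 1.96 to 10.0 FPKM of HAMP. Single markers overlapped at day 40. NKX2-5 reached 11.4 FPKM in GFP-mCherry- libraries, against 2.68 to 16.3 FPKM in GFP+mCherry+ libraries. ACTN2 reached 55.6 FPKM, against 49.9 to 122 FPKM. None of the 7 markers was at 0 in GFP-mCherry- cells, and MYH6 was listed at 0 in library 17 of the GFP-mCherry+ cells of day 40. Of 9 hepatic and endodermal markers (ALB, AFP, APOA1 and others), 0 were higher in GFP-mCherry+ than in GFP-mCherry- cells at either day and 7 were lower at day 40. The hepatic sums were 194 to 449 FPKM in GFP-mCherry+ libraries and 1019 to 2164 FPKM in GFP-mCherry- libraries of day 40, and 145 to 751 and 341 to 586 FPKM at day 25. The part of either cell type in the HAMP levels was not tested.

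**Figure D2:**
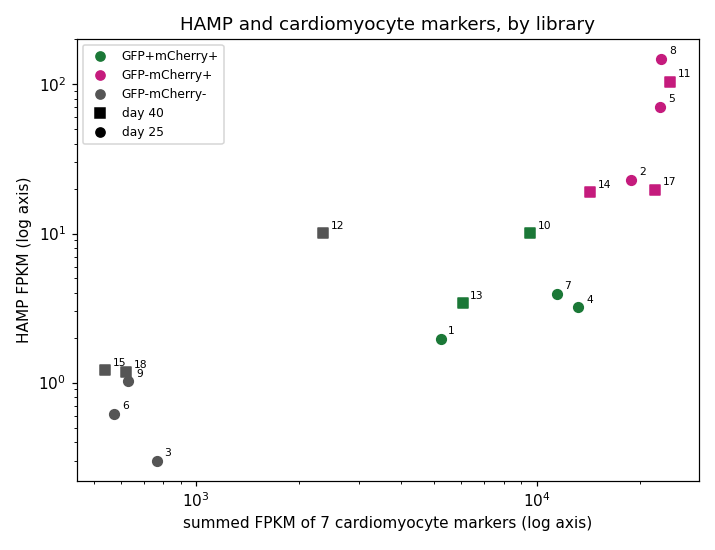
HAMP (FPKM, log axis) against the summed FPKM of 7 cardiomyocyte markers (log axis) in each of the 17 libraries, labelled by library number, with squares for day 40 and circles for day 25. The GFP-mCherry+ libraries sit at the upper right with HAMP from 18.8 to 148 FPKM, and GFP-mCherry- library 12 sits apart from its group at 10.1 FPKM of HAMP and 2355 FPKM of markers.

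HFE (ENSG00000010704, hg19 chr6:26087509-26098571), a membrane protein that binds the transferrin receptor and takes part in the control of hepcidin in liver, ran opposite to HAMP between the mCherry+ populations. GFP+mCherry+ libraries held 8.14 and 9.28 FPKM at day 40, against 0.715, 2.34 and 1.00 FPKM in GFP-mCherry+ libraries and 5.38, 5.56 and 3.18 FPKM in GFP-mCherry- libraries. At day 25 they held 7.27, 4.59 and 3.47 FPKM, against 1.31, 1.33 and 1.35 FPKM in GFP-mCherry+ libraries and 2.65, 5.02 and 3.89 FPKM in GFP-mCherry- libraries. GFP-mCherry+ cells were the low group: none of their libraries reached the lowest library of the other populations at either day. HFE was higher in GFP+mCherry+ than in GFP-mCherry+ cells by 2.10 ± 0.32 at day 40 (limma, adjusted p 0.000449) and by 1.34 ± 0.29 at day 25 (limma, adjusted p 0.00476). GFP-mCherry+ cells were lower than GFP-mCherry- cells by -1.31 ± 0.29 at day 40 (limma, adjusted p 0.00241) and by -1.03 ± 0.29 at day 25 (limma, adjusted p 0.0127, or 0.068 without library 6). GFP+mCherry+ minus GFP-mCherry- was 0.79 ± 0.32 at day 40 and 0.31 ± 0.29 at day 25 (limma, adjusted p 0.117 and 0.53). All levels were low, with every library under 10 FPKM.

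TFR2 (ENSG00000106327, hg19 chr7:100218039-100240402), the second transferrin receptor, which senses iron in liver and erythroid precursors, was close to the bottom of the scale. Its libraries ran from 0.0297 FPKM, in a GFP-mCherry+ library of day 40, to 1.32 FPKM, in a GFP+mCherry+ library of day 40. The groups overlapped, and 1 library passed the 1 FPKM that 2 had to reach for testing. With no filter on low values, the lowest adjusted p of TFR2 in any comparison was 0.134 (limma, GFP+mCherry+ minus GFP-mCherry+ at day 40, 0.54 ± 0.24).

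TF (ENSG00000091513, hg19 chr3:133464800-133497850) encodes transferrin, the plasma iron carrier made chiefly by hepatocytes. It stood at 3.99 and 4.31 FPKM in GFP+mCherry+ libraries of day 40, against 1.13, 2.59 and 1.19 FPKM in GFP-mCherry+ libraries and 3.76, 5.22 and 4.12 FPKM in GFP-mCherry- libraries. At day 25 GFP+mCherry+ libraries held 3.62, 13.5 and 27.1 FPKM, against 2.23, 5.49 and 0.790 FPKM in GFP-mCherry+ libraries and 2.82, 3.41 and 4.30 FPKM in GFP-mCherry- libraries. The high values lay in libraries 4 and 7, and library 1 of that group lay within the range of GFP-mCherry+ cells. TF was higher in GFP+mCherry+ than in GFP-mCherry+ cells at day 25 by 1.88 ± 0.51 (limma, adjusted p 0.0169). That call was lost without library 4 (1.77, adjusted p 0.0523), library 7 (1.29, 0.0873) or library 8 (1.43, 0.089), and with only the compared groups in the fit (0.0831). At day 40 the difference was 1.01 ± 0.57 (limma, adjusted p 0.208). GFP+mCherry+ minus GFP-mCherry- was 1.47 ± 0.51 at day 25 (limma, adjusted p 0.0768) and was called without library 1 (2.18, 0.0044). GFP-mCherry+ minus GFP-mCherry- was -1.06 ± 0.51 at day 40 (limma, adjusted p 0.127), and was called without library 1 (0.0428) or with only the compared groups (0.0253). Of the 9 hepatic and endodermal markers, 7 were higher in GFP+mCherry+ cells at day 25, with sums of 740 to 1811 FPKM against 145 to 751 FPKM in GFP-mCherry+ cells, and 2 of 9 at day 40. GFP-mCherry- libraries of day 40 held 1019 to 2164 FPKM of these markers with 4.37 ± 0.765 FPKM of TF (SD, n = 3). Their part in the TF level was not tested.

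**Figure D3:**
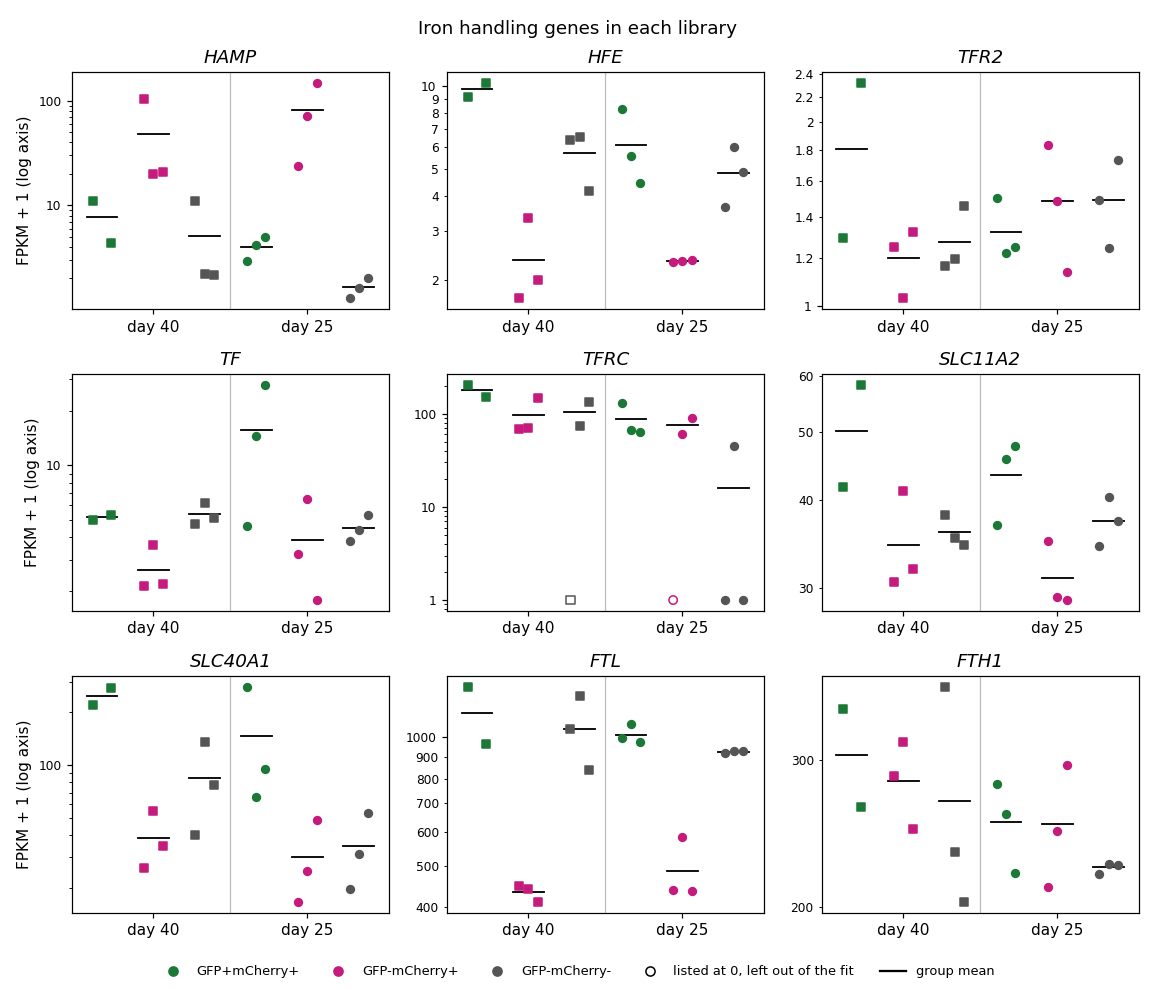
FPKM + 1 (log axis, with a range of its own in each panel) of the 9 genes in each library, by sorted population (colour), with day 40 left and day 25 right in each panel and a line at the group mean. Open symbols are TFRC values listed at 0 that were left out of the fit. GFP-mCherry+ cells are high in HAMP and low in HFE and FTL at both days, and FTH1 spans less than a doubling over all libraries.

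TFRC (ENSG00000072274, hg19 chr3:195754054-195809060), the main transferrin receptor, was listed at exactly 0 in 4 libraries. GFP+mCherry+ libraries held 204 and 149 FPKM at day 40, against 68.1, 68.4 and 148 FPKM in GFP-mCherry+ libraries and 0, 72.0 and 133 FPKM in GFP-mCherry- libraries, where library 12 was at 0. At day 25 they held 131, 66.5 and 61.8 FPKM, against 0 (library 2), 60.1 and 88.9 FPKM in GFP-mCherry+ libraries and 0 (library 3), 44.3 and 0 (library 9) FPKM in GFP-mCherry- libraries. The 13 other values ran from 44.3 to 204 FPKM, so nothing lay between 0 and 44.3. Cufflinks can list a failed estimate as 0, and whether these zeros are such estimates was not tested. A value of 0 was left out of the fit where all others of its group reached 5 FPKM, which took out libraries 2 and 12 and kept 3 and 9.

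With these choices TFRC was called against GFP-mCherry- cells of day 25 in 3 comparisons, each resting on libraries 3 and 9. The differences were 4.53 ± 1.03 for GFP+mCherry+ cells (limma, adjusted p 0.0125), 4.38 ± 1.16 for GFP-mCherry+ cells (limma, adjusted p 0.0108) and 4.80 ± 1.16 for GFP-mCherry- cells of day 40 (limma, adjusted p 0.0352). With all 4 zeros left out they were 0.86, 0.71 and 1.13 (limma, adjusted p 0.329, 0.376 and 0.312), and with all 4 used as deposited 4.53, 2.31 and 2.59 (0.124, 0.374 and 0.501). The first call was also lost without library 3 or 9 (3.61, adjusted p 0.0612 and 0.0635), the second without library 8 (4.10, 0.0697) and the third without library 3, 9, 15 or 18 (0.115 to 0.138). With only the compared groups in the fit all 3 were lost (limma, adjusted p 0.0531, 0.0673 and 0.142). No difference of TFRC between groups was therefore shown apart from those zeros. Between GFP+mCherry+ and GFP-mCherry+ cells it was 0.97 ± 1.16 at day 40 and 0.15 ± 1.16 at day 25 (limma, adjusted p 0.572 and 0.944), with an interval of -1.50 to 3.44 at day 40.

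SLC11A2 (ENSG00000110911, hg19 chr12:51373184-51422349) encodes the divalent metal transporter that moves iron out of endosomes. GFP+mCherry+ libraries held 40.8 and 57.4 FPKM at day 40, against 29.6, 40.2 and 30.9 FPKM in GFP-mCherry+ libraries and 37.1, 34.3 and 33.6 FPKM in GFP-mCherry- libraries. At day 25 they held 35.9, 44.8 and 46.7 FPKM, against 34.0, 28.1 and 27.9 FPKM in GFP-mCherry+ libraries and 33.4, 39.5 and 36.3 FPKM in GFP-mCherry- libraries. Within each day the GFP+mCherry+ libraries all lay above the GFP-mCherry+ ones, by a narrow margin. The differences between these populations, 0.53 ± 0.19 at day 40 and 0.48 ± 0.17 at day 25, missed the threshold (limma, adjusted p 0.0567 and 0.0587). They passed it in 4 of 27 alternatives at day 40 and in 6 of 27 at day 25.

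SLC40A1 (ENSG00000138449, hg19 chr2:190425305-190448484) encodes ferroportin, the iron exporter that hepcidin acts on. GFP+mCherry+ libraries held 219 and 275 FPKM at day 40, against 25.2, 53.7 and 33.6 FPKM in GFP-mCherry+ libraries and 39.3, 135 and 76.1 FPKM in GFP-mCherry- libraries. At day 25 they held 280, 65.3 and 95.0 FPKM, against 15.7, 24.0 and 47.9 FPKM in GFP-mCherry+ libraries and 18.7, 30.2 and 52.4 FPKM in GFP-mCherry- libraries. At each day every GFP+mCherry+ library lay above every library of the other populations, and library 1 stood far above the others of its group. SLC40A1 was higher in GFP+mCherry+ than in GFP-mCherry+ cells by 2.74 ± 0.61 at day 40 (limma, adjusted p 0.00416) and by 2.15 ± 0.54 at day 25 (limma, adjusted p 0.0117). Against GFP-mCherry- cells it was higher by 1.92 ± 0.54 at day 25 (limma, adjusted p 0.0319), and the difference of 1.71 ± 0.61 at day 40 missed the threshold (limma, adjusted p 0.0762). GFP-mCherry+ minus GFP-mCherry- was -1.03 ± 0.54 at day 40 and -0.23 ± 0.54 at day 25 (limma, adjusted p 0.161 and 0.801).

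Single libraries decided some of these calls. The day 40 call against GFP-mCherry+ cells was lost without library 13 (2.58, adjusted p 0.0604), and the day 25 call without library 1 (1.54, 0.0591) or library 2 (1.80, 0.0506). The day 25 call against GFP-mCherry- cells was lost without library 1, 3, 6 or 7 (limma, adjusted p 0.0593 to 0.138) and with no filter on low values (1.92, 0.0652). The day 40 difference against GFP-mCherry- cells was called without library 1 (0.0413) or library 15 (2.14, 0.0481). Macrophages are rich in ferroportin, so macrophage markers are given beside it. Of 7 such markers (PTPRC, CD68, CSF1R, CD163, SPI1, CD14 and TYROBP), 6 were higher in GFP+mCherry+ than in GFP-mCherry+ cells at day 40, with sums of 97.4 to 252 FPKM against 31.2 to 47.1 FPKM. At day 25, 1 of the 7 was higher, with sums of 17.8 to 23.8 FPKM in GFP+mCherry+ libraries against 1.50 to 17.1 FPKM in GFP-mCherry+ libraries. Against GFP-mCherry- cells, 7 of the 7 were higher at day 40 and 0 at day 25. Libraries 10 and 13 held sums of 252 and 97.4 FPKM with 219 and 275 FPKM of SLC40A1. Libraries 1, 4 and 7 held sums of 18.2, 23.8 and 17.8 FPKM with 280, 65.3 and 95.0 FPKM of SLC40A1. Endothelial markers (KDR, CDH5 and VWF, with PECAM1 not found) were added after their values were seen. Their sums were 223 and 201 FPKM in libraries 10 and 13, and 214, 28.3 and 52.9 FPKM in libraries 1, 4 and 7. Nearly all of this was KDR. CDH5 averaged 0.993 FPKM in GFP+mCherry+ cells at day 40 and 0.545 FPKM at day 25, and more in GFP-mCherry- cells (3.66 and 14.7 FPKM). The part of macrophages or endothelial cells in the SLC40A1 level was not tested.

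FTL (ENSG00000087086, hg19 chr19:49468558-49470135) and FTH1 (ENSG00000167996, hg19 chr11:61727190-61735132) encode the light and heavy chains of ferritin. The heavy chain oxidises iron, and the light chain favours its laying down in the core. FTL stood at 1316 and 963 FPKM in GFP+mCherry+ libraries of day 40, against 447, 441 and 410 FPKM in GFP-mCherry+ libraries and 1044, 1250 and 839 FPKM in GFP-mCherry- libraries. At day 25 it stood at 995, 1072 and 973 FPKM in GFP+mCherry+ libraries, against 438, 583 and 434 FPKM in GFP-mCherry+ libraries and 920, 929 and 928 FPKM in GFP-mCherry- libraries. The GFP-mCherry+ cells were the low group at both days, and none of their libraries came near the other populations. FTL was higher in GFP+mCherry+ than in GFP-mCherry+ cells by 1.38 ± 0.21 at day 40 (limma, adjusted p 0.000433) and by 1.07 ± 0.19 at day 25 (limma, adjusted p 0.0015). It was lower in GFP-mCherry+ than in GFP-mCherry- cells by -1.25 ± 0.19 at day 40 (limma, adjusted p 0.000132) and by -0.94 ± 0.19 at day 25 (limma, adjusted p 0.0012). These 4 calls held in all 27 alternatives. GFP+mCherry+ minus GFP-mCherry- was 0.13 at both days, with 95% intervals of -0.32 to 0.57 at day 40 and -0.27 to 0.52 at day 25.

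FTH1 stood at 344 and 263 FPKM in GFP+mCherry+ libraries of day 40, against 286, 315 and 247 FPKM in GFP-mCherry+ libraries and 367, 232 and 202 FPKM in GFP-mCherry- libraries. At day 25 it stood at 280, 258 and 219 FPKM in GFP+mCherry+ libraries, against 211, 246 and 295 FPKM in GFP-mCherry+ libraries and 218, 224 and 224 FPKM in GFP-mCherry- libraries. The groups overlapped, and the adjusted p of FTH1 was at least 0.567 in each comparison of populations within a day (limma). Between GFP+mCherry+ and GFP-mCherry+ cells the difference was 0.10 at day 40 and 0.01 at day 25, with 95% intervals of -0.40 to 0.60 and -0.43 to 0.46. FTH1 overlaps BEST1, which stayed at or under 3.13 FPKM. The annotation names 25 FTH1 and 16 FTL pseudogenes, and how reads shared with these copies were counted is not given in the sources used here, so the levels of both ferritin genes are uncertain.

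The ratio of the ferritin messages was low in GFP-mCherry+ cells. FPKM of FTL over FPKM of FTH1, both per length, averaged 3.74 ± 0.111 in GFP+mCherry+ cells at day 40 (SD, n = 2) and 4.06 ± 0.456 at day 25 (n = 3). In GFP-mCherry+ cells the ratio averaged 1.54 ± 0.130 at day 40 and 1.97 ± 0.460 at day 25, and in GFP-mCherry- cells 4.13 ± 1.28 and 4.17 ± 0.0393 (n = 3 each). The highest GFP-mCherry+ library, at 2.37, lay under the lowest library of the other populations, at 2.84. The ratio was not tested as such. Markers of other cell types stood beside the FTL and HFE differences. Of 6 fibroblast markers (COL1A1, COL1A2, COL3A1, LUM, DCN and POSTN), 5 were higher in GFP+mCherry+ than in GFP-mCherry+ cells and 6 were lower in GFP-mCherry+ than in GFP-mCherry- cells at both days. Their sums were 11291 to 12323 FPKM in GFP+mCherry+ libraries of day 40, against 1942 to 7266 FPKM in GFP-mCherry+ libraries and 11156 to 22974 FPKM in GFP-mCherry- libraries. At day 25 the sums were 8467 to 14090 FPKM in GFP+mCherry+ libraries, against 2871 to 3996 and 7058 to 8657 FPKM. All 5 epithelial markers (CDH1, EPCAM, KRT8, KRT18 and KRT19) were lower in GFP-mCherry+ than in GFP-mCherry- cells at both days, with sums of 582 to 854 FPKM against 1567 to 2607 FPKM at day 40 and 722 to 1015 FPKM against 2286 to 2710 FPKM at day 25. In GFP+mCherry+ against GFP-mCherry+ cells, 1 of the 5 was higher at day 40 and 3 of 5 at day 25. The part of these cell types in the FTL and HFE levels was not tested.

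**Figure D4:**
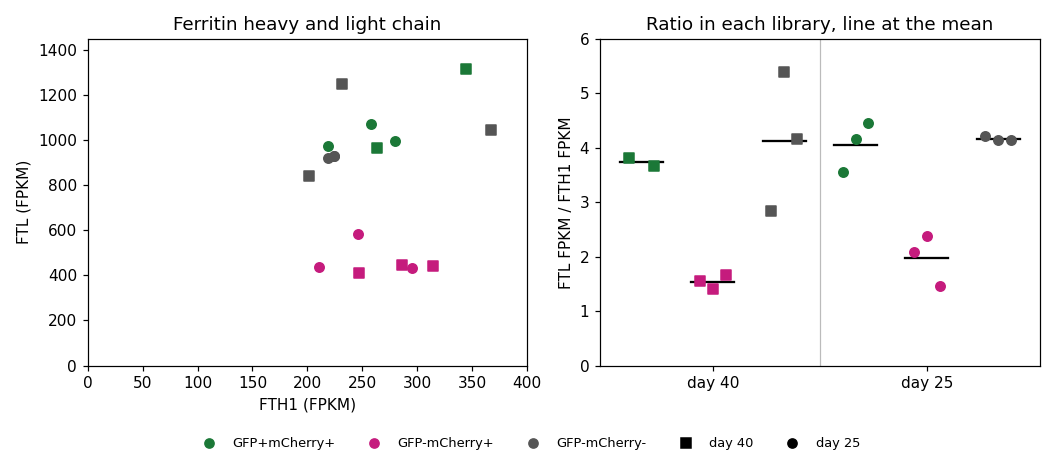
Left, FTL against FTH1 (FPKM, linear axes from 0) in each library. Right, the ratio of FTL to FTH1 in each library, with a line at the group mean, day 40 left of day 25. GFP-mCherry+ libraries have ratios of 1.40 to 2.37 and the other libraries 2.84 to 5.39, at similar FTH1.

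Between the days, 0 of the 8 genes were called in GFP+mCherry+ cells, against 4.08% of all genes, and 0 in GFP-mCherry+ cells, against 4.68%. In GFP-mCherry- cells 1 was called, TFRC, against 3.87% of all genes, and it rests on the zeros described above. HAMP differed by 0.82 ± 0.81 in GFP+mCherry+ cells, by -0.86 ± 0.73 in GFP-mCherry+ cells and by 1.21 ± 0.73 in GFP-mCherry- cells (day 40 minus day 25; limma, adjusted p 0.625, 0.607 and 0.413). SLC40A1 differed by 1.02 ± 0.61, 0.43 ± 0.54 and 1.23 ± 0.54 in the same order of populations (limma, adjusted p 0.37, 0.765 and 0.249). TF differed by -1.26 ± 0.57 in GFP+mCherry+ cells (limma, adjusted p 0.226), and without library 1 by -1.97 (0.0208). Whether a difference between populations changed between the days was tested for the 3 pairs. None of these 24 tests of the 8 genes was called by limma (lowest adjusted p 0.562), and 2 had an unadjusted p under 0.05. Over all genes 0.0135% were called for the pair of mCherry+ populations, 0.00674% for GFP-mCherry+ against GFP-mCherry- cells and 1.24% for GFP+mCherry+ against GFP-mCherry- cells. The larger HAMP difference of day 25 between the mCherry+ populations was thus not shown to differ from that of day 40 (change 1.68 ± 1.09, adjusted p 0.863).

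The wider pathway was followed through 80 further iron and haem genes, of which 71 were tested. Between GFP+mCherry+ and GFP-mCherry+ cells, 11 were higher and 7 lower at day 40, and 6 and 6 at day 25. Over all genes 16.3% were higher and 9.28% lower at day 40, and 12.1% and 8.45% at day 25. In GFP-mCherry+ against GFP-mCherry- cells, 11 were higher and 10 lower at day 40, and 12 and 6 at day 25, against 13.4% and 18.7% of all genes at day 40 and 12.2% and 16.5% at day 25. In GFP+mCherry+ against GFP-mCherry- cells, 6 were higher and 2 lower at day 40 and 3 and 3 at day 25, against 7.15% and 4.85% of all genes at day 40 and 5.81% and 5.29% at day 25.

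Among 16 tested genes of hepcidin control, 4 were higher in GFP+mCherry+ than in GFP-mCherry+ cells at day 40 and 3 at day 25, with 0 lower. Over all genes 16.3% were higher and 9.28% lower at day 40, and 12.1% and 8.45% at day 25. Nothing is read from the counts of so short a list. The median of the list was 0.34 at day 40 and 0.28 at day 25. NEO1 encodes neogenin, which binds the BMP co-receptor hemojuvelin. It averaged 165 ± 8.01 FPKM in GFP+mCherry+ cells and 52.6 ± 14.5 FPKM in GFP-mCherry+ cells of day 40, a log2 difference of 1.66 ± 0.27 (limma, adjusted p 0.000692), with 1.02 ± 0.24 at day 25 (0.00806). IL6R, the interleukin 6 receptor, was higher by 2.56 ± 0.53 at day 40 and 2.33 ± 0.48 at day 25 (limma, adjusted p 0.00294 and 0.00371). BMP6, the ligand that drives hepcidin in liver, was higher by 1.30 ± 0.30 at day 40 (limma, adjusted p 0.0051), at low levels. Its day 40 means were 4.10 ± 1.38 FPKM in GFP+mCherry+, 1.10 ± 0.608 FPKM in GFP-mCherry+ and 4.83 ± 1.37 FPKM in GFP-mCherry- cells. HFE2, which encodes hemojuvelin, was too low to be tested, with no library above 0.126 FPKM.

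The same list between GFP-mCherry+ and GFP-mCherry- cells had 2 higher and 4 lower genes at day 40 and 2 higher and 5 lower at day 25. Over all genes 13.4% were higher and 18.7% lower at day 40, and 12.2% and 16.5% at day 25. Nothing is read from these counts either. Its median was -0.27 at day 40 and -0.47 at day 25. ID1, a common target of BMP signalling, averaged 14.7 ± 8.12 FPKM in GFP-mCherry+ cells and 77.9 ± 15.0 FPKM in GFP-mCherry- cells of day 40 and was lower by -2.43 ± 0.27, and at day 25 by -2.31 ± 0.27 (limma, adjusted p 1.19e-05 and 1.45e-05). NEO1 was lower by -1.58 ± 0.24 and -1.56 ± 0.24 (limma, adjusted p 0.000159 and 0.000162). BMP6 was lower by -1.49 ± 0.27 at day 40 (limma, adjusted p 0.000525), and BMP2, another hepcidin-inducing ligand, was higher by 1.03 ± 0.30 at day 40 and 1.89 ± 0.30 at day 25 (0.0159 and 0.000216). STAT3, the transcription factor of the interleukin 6 signal, was the other higher gene at each day, named after its values were seen. It averaged 112 ± 10.3 FPKM in GFP-mCherry+ cells and 58.5 ± 8.55 FPKM in GFP-mCherry- cells of day 40 (SD, n = 3 each), with differences of 0.93 ± 0.20 at day 40 and 1.04 ± 0.20 at day 25 (limma, adjusted p 0.0019 and 0.000868). Against GFP-mCherry- cells, GFP+mCherry+ cells had ID1 lower by -1.17 ± 0.30 at day 40 and -2.11 ± 0.27 at day 25 and BMP2 higher by 1.35 ± 0.34 and 2.13 ± 0.30 (limma, adjusted p 0.0202, 0.000151, 0.0163 and 0.000339). STAT3 was higher there by 0.82 ± 0.22 at day 40 and 0.91 ± 0.20 at day 25 (limma, adjusted p 0.0226 and 0.00717). The mCherry+ populations, which differed in HAMP, stood close to each other in STAT3 and BMP2. STAT3 averaged 105 ± 28.0 FPKM in GFP+mCherry+ and 112 ± 10.3 FPKM in GFP-mCherry+ cells at day 40. At day 25 it averaged 62.0 ± 3.86 and 69.5 ± 19.1 FPKM. BMP2 averaged 26.1 ± 5.48 and 21.6 ± 8.33 FPKM at day 40, and 25.0 ± 1.19 and 22.3 ± 9.66 FPKM at day 25.

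Iron uptake genes other than the members were higher in GFP+mCherry+ than in GFP-mCherry+ cells for 4 of 7 tested at day 40 and 1 of 7 at day 25, with 0 lower. Over all genes 16.3% were higher at day 40 and 12.1% at day 25. The list median was 1.38 at day 40 and 0.21 at day 25. CYBRD1, a membrane ferric reductase, averaged 93.4 ± 5.88 FPKM in GFP+mCherry+ cells and 18.1 ± 10.0 FPKM in GFP-mCherry+ cells of day 40, with differences of 2.42 ± 0.46 at day 40 and 1.83 ± 0.41 at day 25 (limma, adjusted p 0.0016 and 0.00621). SLC11A1, the metal transporter of phagosomes, was higher by 2.53 ± 0.37 at day 40 (limma, adjusted p 0.000383), and MFI2, which encodes melanotransferrin, by 1.38 ± 0.32 (0.00512). Macrophages express SLC11A1, and 6 of the 7 macrophage markers were higher in the same comparison at day 40 and 1 of 7 at day 25. Their part in this list was not tested. Between GFP-mCherry+ and GFP-mCherry- cells at day 40, CYBRD1 was lower by -1.75 ± 0.41 and MFI2 by -1.54 ± 0.28 (limma, adjusted p 0.00386 and 0.000661).

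Of the oxidases that work with ferroportin, HEPH (hephaestin) was lower in GFP+mCherry+ than in GFP-mCherry+ cells, by -1.37 ± 0.18 at day 40 and -1.25 ± 0.16 at day 25 (limma, adjusted p 0.000192 and 0.000221). It averaged 34.8 ± 5.71 FPKM in GFP+mCherry+ cells and 91.8 ± 14.3 FPKM in GFP-mCherry+ cells of day 40, opposite to SLC40A1. GFP-mCherry+ cells were above GFP-mCherry- cells in HEPH by 1.19 ± 0.16 at day 40 and 1.42 ± 0.16 at day 25 (limma, adjusted p 6.05e-05 and 1.16e-05). CP, ceruloplasmin, was higher in GFP+mCherry+ than in GFP-mCherry+ cells at day 25 by 0.91 ± 0.26 (limma, adjusted p 0.0208), at means of 1.44 and 0.247 FPKM. NCOA4, the receptor that takes ferritin to the lysosome, was lower in GFP+mCherry+ than in GFP-mCherry+ cells at day 25 by -0.64 ± 0.19 (limma, adjusted p 0.0267). In GFP-mCherry+ cells it was higher than in GFP-mCherry- cells by 0.64 ± 0.19 at day 40 and 0.75 ± 0.19 at day 25 (limma, adjusted p 0.0176 and 0.0076). The iron regulatory protein genes gave 1 call in the 6 comparisons of populations, ACO1 in GFP-mCherry+ above GFP-mCherry- cells at day 25 (0.58 ± 0.17, limma, adjusted p 0.0167).

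Of 19 genes of mitochondrial iron and iron-sulfur clusters, 1 was higher and 4 lower in GFP+mCherry+ than in GFP-mCherry+ cells at day 40, and 0 and 3 at day 25. Over all genes 16.3% were higher and 9.28% lower at day 40, and 12.1% and 8.45% at day 25. The list median was -0.26 at day 40 and -0.39 at day 25. LYRM4, a partner of the cysteine desulfurase, was lower by -1.54 ± 0.25 at day 40 (limma, adjusted p 0.000724). NFU1, a cluster carrier, was lower by -0.78 ± 0.21 at day 40 and -0.68 ± 0.19 at day 25 (limma, adjusted p 0.0123 and 0.0183). Between GFP-mCherry+ and GFP-mCherry- cells 5 were higher and 1 lower at day 40, and 4 and 0 at day 25, with NFU1 higher by 0.93 ± 0.19 and 0.66 ± 0.19 (limma, adjusted p 0.00134 and 0.0141). The shares over all genes were 13.4% higher and 18.7% lower at day 40, and 12.2% and 16.5% at day 25. At both days 5 of the 7 cardiomyocyte markers were lower in the first of these comparisons and 7 of 7 higher in the second, and their part in this list was not tested. Of the 9 haem synthesis genes, ALAS1 and ALAS2, which encode the first enzyme of the pathway, were the only calls in the 6 comparisons. GFP-mCherry+ cells were above GFP-mCherry- cells in ALAS1 by 0.98 ± 0.19 at day 40 and 0.65 ± 0.19 at day 25 (limma, adjusted p 0.000841 and 0.0149). HMOX1, which breaks haem down, was higher in GFP+mCherry+ than in GFP-mCherry+ cells by 2.12 ± 0.28 at day 40 and 1.50 ± 0.25 at day 25 (limma, adjusted p 0.000194 and 0.00123). CD163, the haemoglobin scavenger receptor of macrophages and 1 of the 7 macrophage markers above, was higher there by 1.93 ± 0.39 at day 40 (limma, adjusted p 0.00235).

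**Figure D5:**
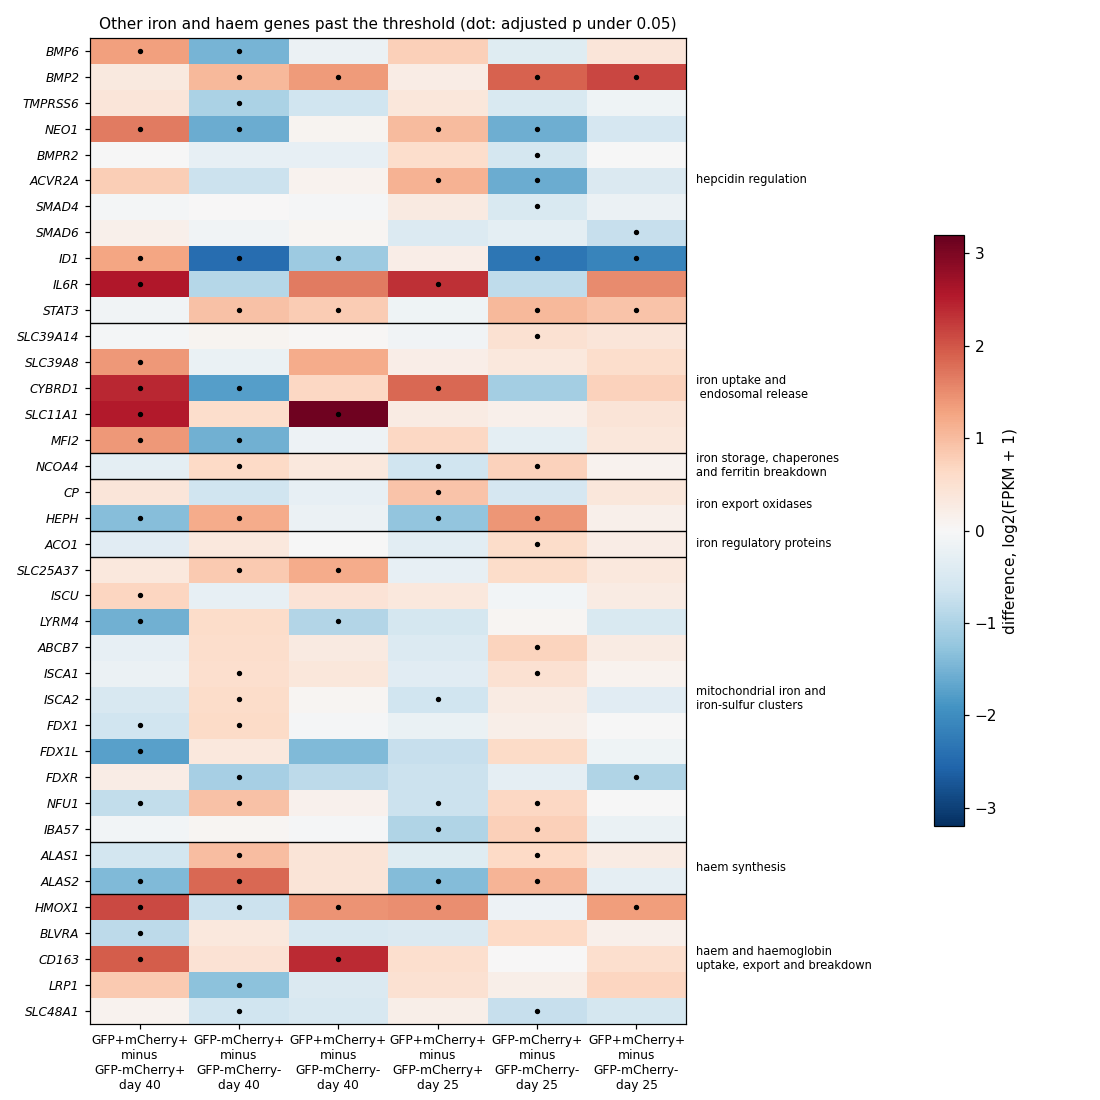
Difference on the log2(FPKM + 1) scale (colour, red higher in the population named first) of the 38 listed iron and haem genes called in at least 1 comparison of populations, with a dot where the adjusted p was under 0.05. Columns are the 3 comparisons at day 40 and then at day 25, and rows are grouped by list. NEO1, IL6R, CYBRD1 and HMOX1 are red and HEPH is blue in GFP+mCherry+ minus GFP-mCherry+ at both days.

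The genes most like each member in log2(FPKM + 1) were found by Pearson's r over the 17 libraries, as a description, since libraries of a group share their cells. HAMP was most like LSMEM2 (r 0.99), HSPB2, SRL, VPS13D and C10orf71. SLC40A1 was most like TYRP1 (r 0.98), CARD16, AGTR1, OLR1 and SLC5A12, and HFE like H6PD (r 0.98), TRIM38, PPFIBP2, LRRC1 and NPNT. FTL was most like DHX58 (r 0.95), APBB2, SLC3A2, TMBIM1 and CDH1. TF (PRELP, r 0.93) and SLC11A2 (ZNF440, r 0.93) had somewhat looser partners. FTH1 (DNAJB4, r 0.82) and TFRC (MAP1A, r 0.84 over 15 libraries) had the lowest. The TFRC value includes the zeros of libraries 3 and 9, far from all its other values.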

How the data were processed

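FPKM values as deposited were used. That unit is not written in the header and was read from the tool named and from the range of the values. The submitters' processing notes list bcl2fastq 2.19, cutadapt, STAR 2.5.2b, Cufflinks 2.1.1 and hg19, with neither order nor settings. Columns were matched to samples by the library number that opens each title. The 20368 rows gave 20218 genes after merging rows that share a name.

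Values were taken as log2(FPKM + 1). Testing was limited to the 14845 genes that reached 1 FPKM in 2 or more libraries. A value listed at 0 in 1 library was set to missing where all others of its group reached 5 FPKM (41 values in 33 genes). The 6 group means were estimated from all 17 libraries in limma 3.58.1 under R 4.3.3 (moderated with a trend; 11 residual degrees of freedom). P-values were adjusted by Benjamini-Hochberg within each of 12 comparisons. The procedure was run on simulated data with independent noise and a shift in the GFP+mCherry+ libraries of day 25. That run does not cover shifts in the group of 2, listed zeros or libraries that vary together. Pathway genes named are up to 3 per list and comparison, called with the smallest adjusted p. The members, lists and tests were chosen with earlier results of these data known.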

Additional observations from a re-analysis of the deposited data

How the results depend on the processing

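No difference of the 8 tested genes changed direction where it was called. Of 2544 recomputed differences 44 lost a call and 20 gained one. Between GFP+mCherry+ and GFP-mCherry- cells at day 25 the 2 calls became 1 with the values as deposited, with every listed 0 left out (an alternative chosen after seeing the data) and with no filter on low values. With only the compared groups in the fit, TFRC lost its call there and HAMP gained one. The 1 call of day 40 against day 25 in GFP-mCherry- cells (TFRC) became 0 with the values as deposited, every listed 0 left out, a pseudocount of 0.1, no filter, or only the compared groups. The HAMP call between the mCherry+ populations at day 40 was lost with a pseudocount of 0.1, no filter or only the compared groups (adjusted p 0.0615, 0.0818 and 0.0928). The causes were not tested. With 1 library left out, calls between GFP+mCherry+ and GFP-mCherry+ cells ran from 2 to 5 at day 40 and 4 to 6 at day 25. Between GFP-mCherry+ and GFP-mCherry- cells they ran from 3 to 4 at both days, and between GFP+mCherry+ and GFP-mCherry- cells from 0 to 1 at day 40 and 0 to 2 at day 25. Between the days they ran from 0 to 1 in GFP+mCherry+ and GFP-mCherry- cells and stayed at 0 in GFP-mCherry+ cells. Changes of a difference between the days stayed at 0 for the mCherry+ populations and ran from 0 to 1 for the pairs with GFP-mCherry- cells, with TFRC called without library 6 (adjusted p 0.000978 and 0.00337). A replicate block on sets of 3 consecutive library numbers, whose 16 pairs correlated at -0.135 to 0.503, is only a shared number. It added 1 call, HAMP in GFP+mCherry+ against GFP-mCherry- cells at day 25 (1.29, adjusted p 0.0253). Quantile normalization moved the median of all genes by -0.13 in GFP+mCherry+ minus GFP-mCherry+ at day 40, and other shifts by a scaling stayed under 0.1. Without read depth, low genes such as TFR2 cannot be given a detection limit.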

Other observations

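Between the days, 2 of the 71 tested pathway genes were called in GFP+mCherry+ cells, 5 in GFP-mCherry+ cells and 4 in GFP-mCherry- cells. The shares over all genes were 4.08%, 4.68% and 3.87%, so nothing is read from the list's counts. SLC11A1 was higher at day 40 than at day 25 in GFP+mCherry+ cells, by 3.25 ± 0.37 (limma, adjusted p 6.7e-05), with means of 21.2 ± 4.47 FPKM at day 40 and 1.44 ± 0.938 FPKM at day 25. CD163 was higher at day 40 in GFP+mCherry+ cells by 2.80 ± 0.39 and in GFP-mCherry+ cells by 1.41 ± 0.35 (limma, adjusted p 0.000329 and 0.0286). Both are genes of macrophages, whose 7 markers summed to 97.4 to 252 FPKM at day 40 and 17.8 to 23.8 FPKM at day 25 in GFP+mCherry+ libraries. BMP6 was higher at day 40 in GFP-mCherry- cells by 1.59 ± 0.27 (limma, adjusted p 0.0042). ID1 was lower at day 40 in GFP-mCherry+ cells by -1.36 ± 0.27 and in GFP-mCherry- cells by -1.24 ± 0.27 (limma, adjusted p 0.0123 and 0.0189).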
